A study of Oryza sativa Japonica Group with 10 samples.

Results

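The genes described are the rice glutathione S-transferases GSTF2 (LOC4326887), GSTZ3 (LOC4329692) and GSTZ5 (LOC4332455), chosen by gene identifier with all probe sets that the platform annotation gives to that gene alone. They are 3 of the 17905 genes so annotated. The rule found 4 probe sets, 1 each for GSTF2 (ending in _a_at) and GSTZ5 (ending in _at) and 2 for GSTZ3, called here by their endings the _at and the _x_at probe set, among 22436 probe sets with 1 gene on an array of 57381. They were measured on 10 Affymetrix rice arrays of whole seedlings of the japonica cultivar Zhonghua 10, 1 week old, in 5 groups of 2 biological replicates: a control grown with sufficient phosphate, and seedlings held in Pi-deficient solution for 6, 24, 48 and 72 h. Per the labels, the replicates are RNA of separate plants. The labels state no harvest time for the control and name no Pi-sufficient group at any of the 4 times, so low phosphate, seedling age and time of day cannot be told apart in any comparison with the control. Since RNA came from whole seedlings, fewer cells of a type and less RNA per cell cannot be told apart either. All 4 probe sets passed the filter on low signals, a mean log2 signal above 4.58.

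Glutathione S-transferases join the thiol tripeptide glutathione to electrophilic compounds such as herbicides and products of lipid oxidation, and ABC transporters then carry many of the conjugates into the vacuole. Plants hold several classes of these enzymes. The phi class, to which the F in GSTF2 refers, and the tau class are large in plants and are known for herbicide detoxification and for induction by many stresses, while the zeta class, the Z in the other symbols, is known for an isomerase step of tyrosine breakdown. The class of the proteins behind these symbols was not checked here. By Affymetrix naming, a probe set ending in _a_at matches alternative transcripts of 1 gene, and 1 ending in _x_at holds probes that also match other sequences, so the signal of the GSTZ3 _x_at probe set may include other transcripts.

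Under the authors' scaling the 3 genes took 3 different courses. GSTF2 and GSTZ3 were both lower from 6 to 48 h and parted at 72 h. With median centring both were lower at 72 h too, GSTZ3 with differences of -0.56 and -0.40 on its probe sets. GSTF2 was lower in low phosphate, by 0.14 to 0.48 on the log2 scale under the authors' scaling. Quantile normalization turned its direction at 6 h and left -0.03 at 48 h, and median centring gave its lowest value at 72 h, -0.85. GSTZ3 was lower from 6 to 48 h on both probe sets, by 0.55 to 1.23 on the log2 scale, and was back near the control level at 72 h under the authors' scaling, though not with median centring. GSTZ5 was higher at every time, with a dip at 48 h and its highest signals at 72 h under the authors' scaling, or at 24 h with median centring. An F-test over the 5 groups passed for all 4 probe sets (adjusted p between 1.45e-07 and 7.40e-06), as it did for 61.4% of the 34355 probe sets tested.

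**Figure D1:**
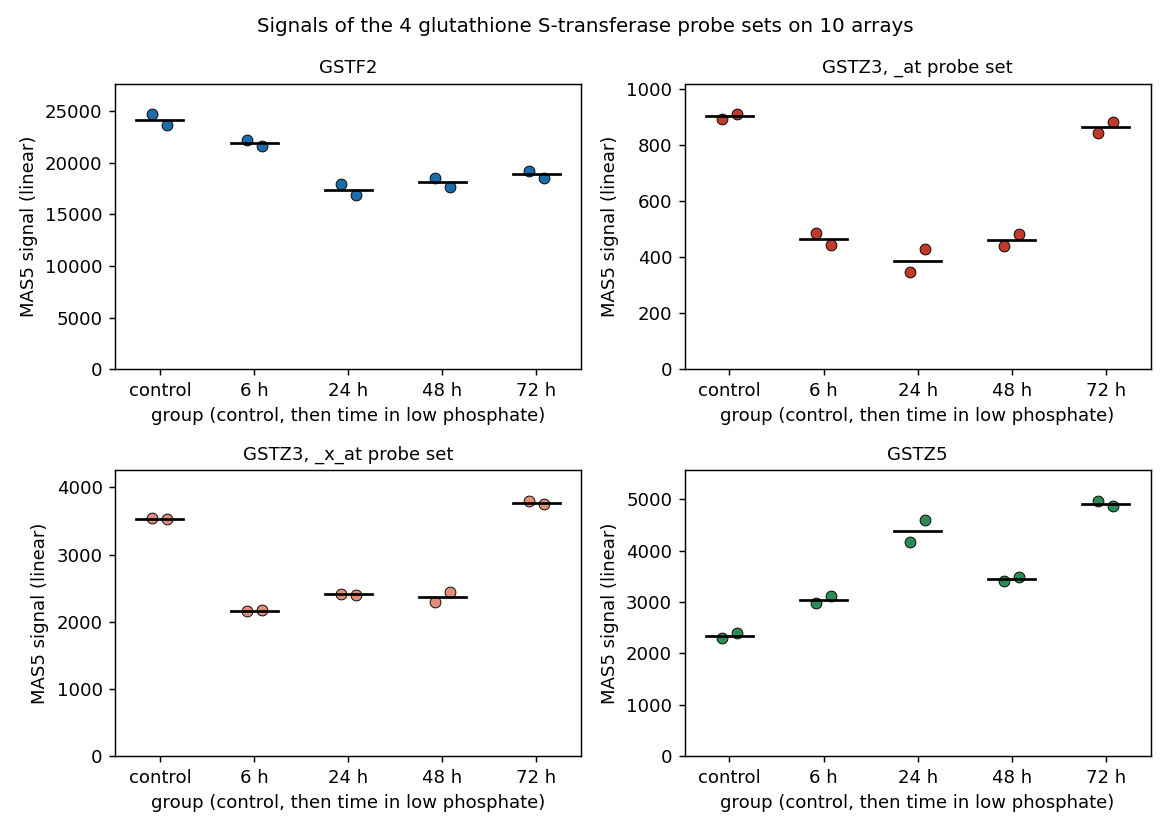
MAS5 signal (linear, y axis from 0) of each probe set by group, control at the left and then time in low phosphate. Points are single arrays (2 per group) and black lines are group means; GSTZ3 falls to 464.6 and 2163 at 6 h on its probe sets and stands at 864.2 and 3776 at 72 h, while GSTZ5 reaches 4382 at 24 h and 4913 at 72 h.

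GSTF2 is named as a phi-class enzyme, and its mean log2 signal was above that of 99.67% of probe sets. Its signals were 24688.5 and 23638 in the control, 22243.2 and 21637.5 at 6 h, 17904.2 and 16834.8 at 24 h, 18509.5 and 17684.1 at 48 h, and 19231.2 and 18527.8 at 72 h. Every array in low phosphate was below both control arrays, and the arrays at 24, 48 and 72 h were all below those at 6 h. In each of these pairs of groups, 66% to 70.8% of all probe sets tested were apart. At 24 h the log2 difference from the control was -0.48 ± 0.05 (SE, n = 2 arrays per group, limma adjusted p = 3.80e-06). It was smaller at the later times, -0.42 ± 0.05 for 48 h (2.47e-05) and -0.36 ± 0.05 for 72 h (6.54e-05). At 6 h it was -0.14 ± 0.05 (adjusted p = 0.0317), and the direction of this small difference turned with quantile normalization of the arrays, which gave 0.15 (0.00967). The fall passed in 17 of 17 alternative settings at 24 h and at 72 h, with a range of -0.58 to -0.28 at 24 h and of -0.85 to -0.12 at 72 h. At 48 h it passed in 16 of 17, and quantile normalization gave -0.03 (0.69). At 6 h it passed as a fall in 11 of 17, not without control replicate 1 (-0.11, 0.206) nor without either 6 h array.

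Between successive times GSTF2 fell by 0.34 ± 0.05 at 24 h against 6 h (adjusted p = 7.46e-05). The differences after that did not pass: 0.06 ± 0.05 at 48 h against 24 h, with a 95% interval of -0.04 to 0.16, and 0.06 ± 0.05 at 72 h against 48 h, with an interval of -0.04 to 0.16. In the order of mean signals (control, 6 h, 72 h, 48 h, 24 h), 72 h thus did not pass against 48 h, nor 48 h against 24 h. The 48 h and 24 h arrays overlapped. GSTF2 at 72 h did pass against 6 h (-0.22 ± 0.05, adjusted p = 0.00268) and was 0.12 ± 0.05 above 24 h, just short of passing (0.0501). Quantile normalization gave a rise of 0.25 (adjusted p = 0.000336) at 48 h against 24 h, and median centring gave -0.45 (0.000187) at 72 h against 48 h.

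GSTZ3 was measured by both of its probe sets. The _at probe set gave signals of 894.2 and 910.1 in the control, 486.9 and 442.3 at 6 h, 346.1 and 429.4 at 24 h, 438.8 and 481.9 at 48 h, and 844.9 and 883.5 at 72 h. Its arrays from 6 to 48 h lay far below all control and 72 h arrays, and the 72 h arrays lay just under the control arrays. The _x_at probe set gave 3540.1 and 3525 in the control, 2154.8 and 2171.7 at 6 h, 2420.6 and 2402.5 at 24 h, 2292.5 and 2451.8 at 48 h, and 3798.6 and 3753.2 at 72 h. Here too the 6, 24 and 48 h arrays were all below the control arrays, and the 72 h arrays were above them. Of all probe sets tested, 66% to 70.8% were apart in each such pair of groups.

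On the _at probe set, the log2 differences of GSTZ3 from the control at 6, 24 and 48 h were -0.96 ± 0.12 (adjusted p = 6.28e-05), -1.23 ± 0.12 (6.12e-06) and -0.97 ± 0.12 (8.34e-05). On the _x_at probe set they were -0.71 ± 0.06 (1.16e-06), -0.55 ± 0.06 (6.89e-06) and -0.58 ± 0.06 (1.04e-05). These 6 falls passed in 17 of 17 alternative settings each. Both probe sets thus gave the same direction, and the _x_at probe set gave the smaller change at each time.

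At 72 h neither GSTZ3 probe set passed against the control. The differences were -0.06 ± 0.12 (95% interval -0.33 to 0.21, adjusted p = 0.724) on the _at probe set and 0.10 ± 0.06 (interval -0.03 to 0.22, adjusted p = 0.201) on the _x_at probe set. Against 48 h, GSTZ3 rose by 0.91 ± 0.12 (adjusted p = 0.000142) and 0.67 ± 0.06 (3.11e-06) at 72 h. The return at 72 h depended on how the arrays were scaled. With each array centred on its median signal, the values against the control became -0.56 (0.00289) and -0.40 (0.000797), both falls, and the rise against 48 h became 0.40 (0.0218) and 0.16 (0.118). The direction on the _x_at probe set against the control turned under that setting alone.

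Among 6, 24 and 48 h the differences in GSTZ3 were smaller. On the _at probe set the difference was -0.27 ± 0.12 at 24 h against 6 h (adjusted p = 0.113) and 0.25 ± 0.12 at 48 h against 24 h (0.139). Both passed without replicate 2 of the 24 h group, at -0.42 (0.0224) and 0.41 (0.0283). The 6 h and 48 h arrays overlapped on this probe set. On the _x_at probe set, 24 h was 0.16 ± 0.06 above 6 h (adjusted p = 0.0443), a call that passed in 3 of 17 alternative settings, and 48 h differed from 24 h by -0.02 ± 0.06 (0.786). The lowest mean was thus at 24 h on one probe set and at 6 h on the other.

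GSTZ5 ran the other way. Its signals were 2289.5 and 2393 in the control, 2973.1 and 3117.8 at 6 h, 4164.1 and 4599.5 at 24 h, 3403.8 and 3481.3 at 48 h, and 4962.3 and 4863.2 at 72 h. Under the authors' scaling no 2 groups overlapped, so the arrays ordered the groups as control, 6 h, 48 h, 24 h and 72 h from low to high. In any 1 pair of groups, 66% to 70.8% of all probe sets tested were apart. How many were apart in every pair was not computed. The log2 rises over the control at 6, 24, 48 and 72 h were 0.38 ± 0.06 (adjusted p = 0.000376), 0.90 ± 0.06 (1.81e-07), 0.56 ± 0.06 (2.66e-05) and 1.07 ± 0.06 (9.61e-08). All 4 rises passed in 17 of 17 alternative settings.

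The course of GSTZ5 changed direction from one time to the next. It rose by 0.52 ± 0.06 at 24 h against 6 h (adjusted p = 2.31e-05), fell by 0.35 ± 0.06 at 48 h against 24 h (0.000755) and rose by 0.51 ± 0.06 at 72 h against 48 h (5.20e-05). The dip at 48 h passed in 17 of 17 alternative settings. The last rise passed in 16 of 17, and median centring left a difference of -0.00043, below 0 (adjusted p = 0.997), since the 72 h arrays had the highest median signals. Under that centring the rise over the control at 72 h was 0.57 (9.68e-06), close to the 0.57 (2.83e-05) it gave at 48 h and below the 0.80 (4.24e-07) it gave at 24 h, so the highest time of GSTZ5 moved to 24 h.

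**Figure D2:**
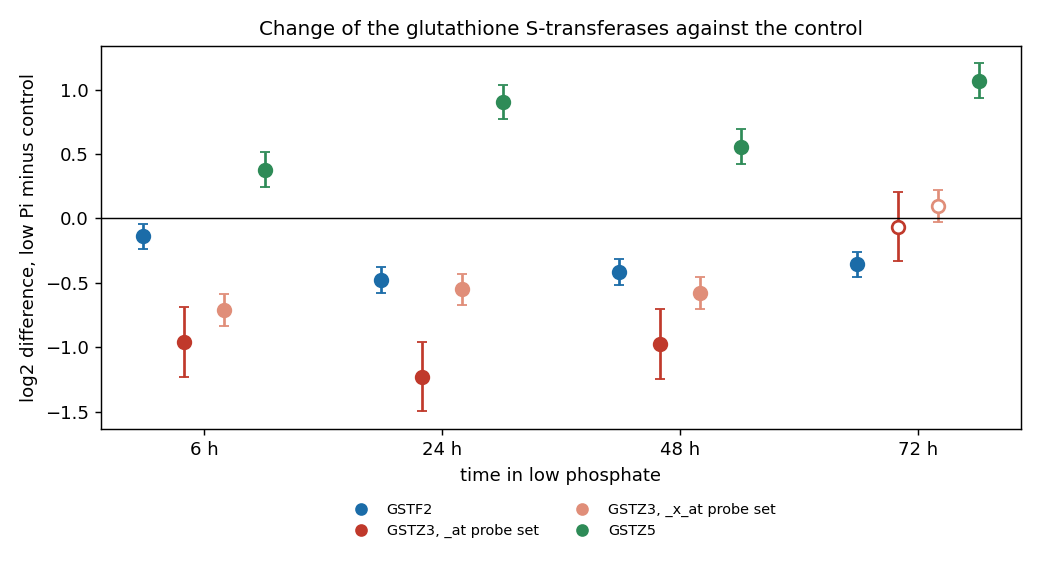
Log2 difference from the control (y axis, low phosphate minus control) at each time in low phosphate (x axis) for the 4 probe sets, with 95% intervals from limma. Filled points have adjusted p under 0.05; the open points are the GSTZ3 probe sets at 72 h, -0.06 and 0.10.

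All 4 probe sets passed at 6, 24 and 48 h and 2 of 4 at 72 h. Of all probe sets tested, the shares that passed at 6, 24, 48 and 72 h were 36.2%, 39.8%, 31.9% and 39.4%. Between successive times 3 of 4 passed at 24 h against 6 h (39.3% of all), 1 of 4 at 48 h against 24 h (35.8%) and 3 of 4 at 72 h against 48 h (31.2%). With 4 probe sets of 3 genes these shares carry little weight. Groups of 2 arrays often did not overlap. Against the control they were apart in 67.2%, 66%, 66.6% and 70.8% of probe sets at 6, 24, 48 and 72 h, and between successive times in 66.8% (24 h against 6 h), 66.6% (48 h against 24 h) and 68.8% (72 h against 48 h). For the other pairs of times the shares were 66.7% (48 h against 6 h), 69% (72 h against 6 h) and 70.5% (72 h against 24 h).

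Changes of this size were common on these arrays. The study's own rule, a ratio of mean signals beyond 2-fold, was met by GSTZ3 on the _at probe set at 24 h (ratio of low phosphate over control 0.43, with 21% of all probe sets past the limit) and by GSTZ5 at 72 h (a ratio of 2.1, with 22.2%), and by no other of these probe sets against the control. Between successive times it was met by 0 of 4, where 20% (24 h against 6 h), 18% (48 h against 24 h) and 18.3% (72 h against 48 h) of all probe sets met it. At 6 h (17.2% of all) and 48 h (14.1%) the same GSTZ3 probe set was just inside the limit, at 0.515 and 0.51. The GSTZ5 difference at 72 h was equalled or exceeded in size by 21.5% of probe sets tested, that of GSTZ3 on the _at probe set at 24 h by 16.9%, and that of GSTF2 at 24 h by 51.9%.

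Scaling matters most at 72 h. Array medians ran from 47.6 to 69.3, with the highest at 72 h, and centring on the median lowered every log2 difference of 72 h against the control by 0.50 and against 48 h by 0.51, while the shift was between -0.10 and 0.01 for the other times against the control. The median difference from the control over all probe sets tested at 6, 24, 48 and 72 h was 0.04, 0.04, 0.11 and 0.16. Control transcripts measured at both ends had a changed ratio of 3′ over 5′ signal at the same time. For the 4 bacterial transcripts the median change of this log2 ratio at 6, 24, 48 and 72 h was 0.81, -0.01, 0.08 and 2.51, and for 3 rice probe pairs of actin and Gapdh it was 1.27, -0.18, 0.17 and 3.35. Its part in the 6 h and 72 h values of the 3 genes was not tested. The highest signal of an array also differed, from 36336.7 on a 48 h array to 58691.6 on a 24 h array. GSTF2 lies near this bright end, and the part of such differences in its values was not tested.

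**Figure D3:**
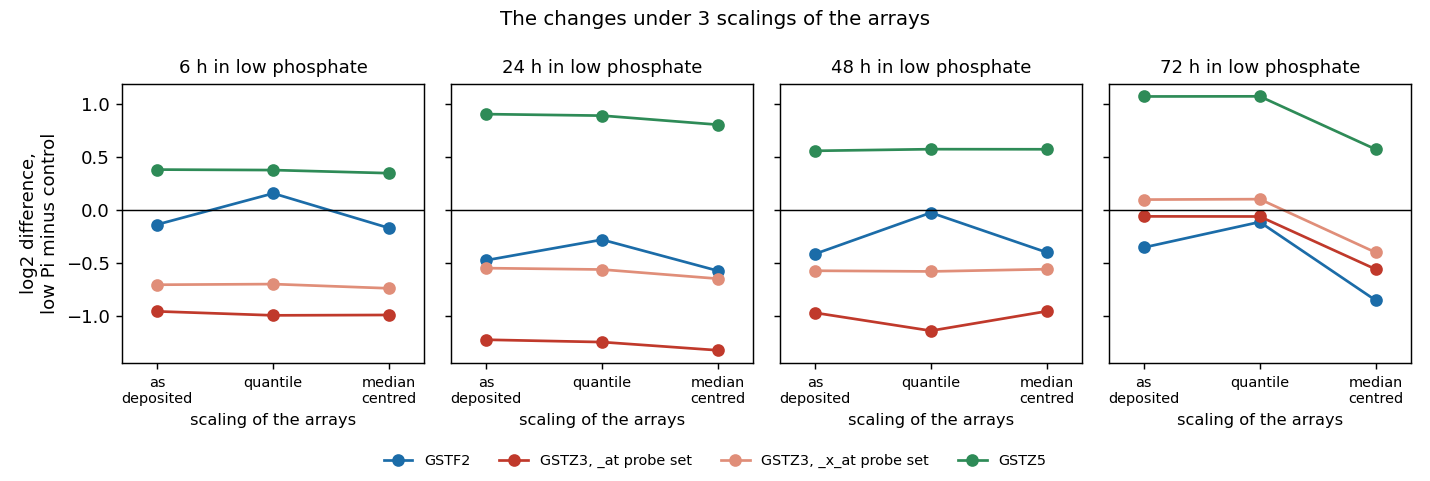
Log2 difference from the control (y axis) of each probe set under the authors' scaling, quantile normalization and median centring (x axis), in 1 panel per time. At 72 h median centring takes GSTZ3 to -0.56 and -0.40 and GSTZ5 to 0.57; at 6 h and 48 h quantile normalization takes GSTF2 to 0.15 and -0.03.

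Markers of shoot, root and seed reserves were found in every group. Shoot markers (4 of 6 matched genes tested, with the small Rubisco subunit gene RBCS1 under the filter) had a summed signal of 83181 to 83792 in the control, 89803 to 90322 at 6 h, 60815 to 61858 at 24 h, 69223 to 73058 at 48 h and 65142 to 67278 at 72 h. Root markers (3 of 4 tested) summed to 27831 to 28730 in the control, 24226 to 24396 at 6 h, 15837 to 16127 at 24 h, 28028 to 29073 at 48 h and 36534 to 37054 at 72 h. Endosperm and seed reserve markers, here called seed reserve markers for short, include alpha-amylase genes. These markers (4 of 6 tested) summed to 6215 to 6525 in the control, 1646 to 1692 at 6 h, 2336 to 2468 at 24 h, 2107 to 2119 at 48 h and 3259 to 3443 at 72 h. At 24 h the 4 shoot markers went both ways, 2 higher and 2 lower than in the control. The chlorophyll-binding protein genes CAB2R (-3.22 ± 0.05, adjusted p = 9.09e-13) and RCABP89 (-0.57 ± 0.04, 3.99e-07) were lower, while the Rubisco activase gene rca (0.65 ± 0.04, 1.07e-07) and the Rubisco small subunit gene OsrbcS (0.40 ± 0.04, 3.08e-06) were higher, so the summed shoot signal at 24 h does not stand for all shoot markers. The shoot sum was highest at 6 h, and the root sum lowest at 24 h and highest at 72 h. The seed reserve sum was lower than in the control at every time in low phosphate. The root and seed reserve sums do not stand for all their markers either. At 24 h, 1 of the 3 root markers passed as lower, Lsi1, and 2 did not pass. Among seed reserve markers, AMY3D, an alpha-amylase gene and not a gene of a reserve protein, had signals of 3703.2 and 3433.7 in the control and 90.9 and 110.1 at 6 h. It was the brightest of these markers in the control, so their sum leans on it. At 72 h 1 of 4 passed as lower. At 6 h the brightest RAG2 probe set had 183.9 and 151.3, against 229.7 and 324.6 in the control. Another RAG2 probe set was 1.36 higher (adjusted p = 0.000936). The part of such shifts in the values of the 3 genes was not tested.

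Other glutathione S-transferases on the array followed yet other courses. Of 3 further genes with such a symbol, GSTF1 was under the filter, with signals between 1.2 and 14.6, and the tau-class genes GSTU1 and GSTU6 were tested. GSTU1 had signals of 500 and 609.8 in the control, 1404.9 and 1094.6 at 6 h, 723 and 758.4 at 24 h, 344.1 and 410.3 at 48 h, and 440.8 and 438.1 at 72 h. Against the control it was 1.17 ± 0.14 higher at 6 h (adjusted p = 4.63e-05) and 0.42 ± 0.14 higher at 24 h (0.0355). At 48 h it was 0.56 ± 0.14 lower than in the control (0.0113), a time at which GSTZ5 was higher. Its probe set ends in _s_at, which by Affymetrix naming matches transcripts of several genes, so its signal is less certain. GSTU6 had signals of 2391.5 and 2331.4 in the control, 2452.9 and 2511.1 at 6 h, 959.1 and 927 at 24 h, 2030.2 and 2060.7 at 48 h, and 1151 and 1117.1 at 72 h. Its log2 differences were 0.07 ± 0.06 at 6 h (adjusted p = 0.439), -1.32 ± 0.06 for 24 h (9.08e-09), -0.21 ± 0.06 for 48 h (0.0272) and -1.06 ± 0.06 for 72 h (1.48e-07). GSTU6 thus was lower at 24 and 72 h, the times at which GSTZ5 had its largest differences under the authors' scaling, though with median centring those of GSTZ5 at 48 and 72 h were alike (0.57 each).

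Genes that make and recycle glutathione moved in both directions over time. The γ-glutamylcysteine synthetase gene gcs, which catalyses the first step of glutathione synthesis, differed by -0.56 ± 0.07 at 6 h (adjusted p = 8.88e-05), by 0.44 ± 0.07 at 24 h (0.000487) and by -0.46 ± 0.07 at 72 h (0.000411) on its brightest probe set, an _x_at set. Its probe sets disagreed at 24 h, where the others gave -0.06 (0.608) and -0.83 (2.99e-06), so its direction at 24 h is not settled. At 72 h the others gave -0.21 (0.0492) and -0.11 (0.303). The glutathione reductase gene RGRC2, whose product restores reduced glutathione, differed by 0.45 ± 0.05 at 24 h (2.53e-05), by -0.20 ± 0.05 at 48 h (0.0143) and by -0.41 ± 0.05 at 72 h (8.05e-05). On these brightest probe sets, 0 of the 2 genes were higher and 1 lower at 6 h (19% and 17.2% of all probe sets tested), 2 and 0 at 24 h (20.6% and 19.2%), 0 and 1 at 48 h (19.4% and 12.5%), and 0 and 2 at 72 h (21.9% and 17.6%), counts that rest for gcs on a probe set the others did not match at 24 h.

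Among genes that use glutathione, 17 of 20 on the array were tested, mostly glutaredoxins, small oxidoreductases that draw electrons from glutathione. At 6 h 8 were higher and 6 lower (19% and 17.2% of all probe sets tested), at 24 h 5 and 9 (20.6% and 19.2%), at 48 h 4 and 6 (19.4% and 12.5%) and at 72 h 6 and 4 (21.9% and 17.6%). Their median differences were 0.16, -0.25, -0.06 and 0.01 at these times. The glutaredoxin gene GRXS10 (an _s_at probe set) rose at all 4 times, by 0.93 ± 0.08 (adjusted p = 1.39e-06), 0.72 ± 0.08, 0.68 ± 0.08 and 0.73 ± 0.08. GRXC10 had the largest fall of this list at 24 h, -1.61 ± 0.32 (0.00159), and GRXS6 fell by 0.98 ± 0.06 (5.65e-08) at that time. ABCC13, an ABC transporter known in rice for phytic acid and not for glutathione conjugates, rose by 1.58 ± 0.10 at 24 h (1.03e-07).

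At 48 h, among changes of these glutathione users that passed, the 3 largest were those of GRXS5, which fell by 0.73 ± 0.05 (adjusted p = 4.34e-07), GRXS10, and GRXS12, which rose by 0.43 ± 0.09 (0.00282) after a rise of 0.81 ± 0.09 at 6 h (1.96e-05). At 72 h GRXC3 rose by 0.86 ± 0.26 (0.0223) and GRXS4 by 0.84 ± 0.09 (1.97e-05). A rise of GRXC10 at 6 h, 0.89 ± 0.32 (0.0495), passed in 5 of 17 alternative settings.

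The linked ascorbate and superoxide pathways remove superoxide and peroxide, and their ascorbate peroxidases use ascorbate that glutathione helps to regenerate. Enzymes of these pathways also moved both ways. Of 13 tested, 5 were higher and 2 lower at 6 h (19% and 17.2% of all probe sets tested), 6 and 6 at 24 h (20.6% and 19.2%), 4 and 5 at 48 h (19.4% and 12.5%), and 5 and 3 at 72 h (21.9% and 17.6%). Their median differences were 0.02, 0.21, -0.07 and -0.01. The cytosolic ascorbate peroxidase gene APX1 rose at all 4 times, by 0.56 ± 0.04, 0.85 ± 0.04 (adjusted p = 6.23e-09), 0.68 ± 0.04 and 0.89 ± 0.04 (1.20e-08). With median centring its difference at 72 h was 0.39, below the 0.75 at 24 h, as for GSTZ5. APX5 rose by 1.22 ± 0.13 (1.82e-05) and the monodehydroascorbate reductase gene MDAR5 by 1.05 ± 0.08 (5.88e-07) at 6 h, and APX7 by 0.81 ± 0.07 (3.11e-06). The copper-zinc superoxide dismutase genes SodCc1 and SodCc2 fell at 24 h, with differences of -0.77 ± 0.06 (3.29e-07) and -0.76 ± 0.05 (1.13e-07).

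**Figure D4:**
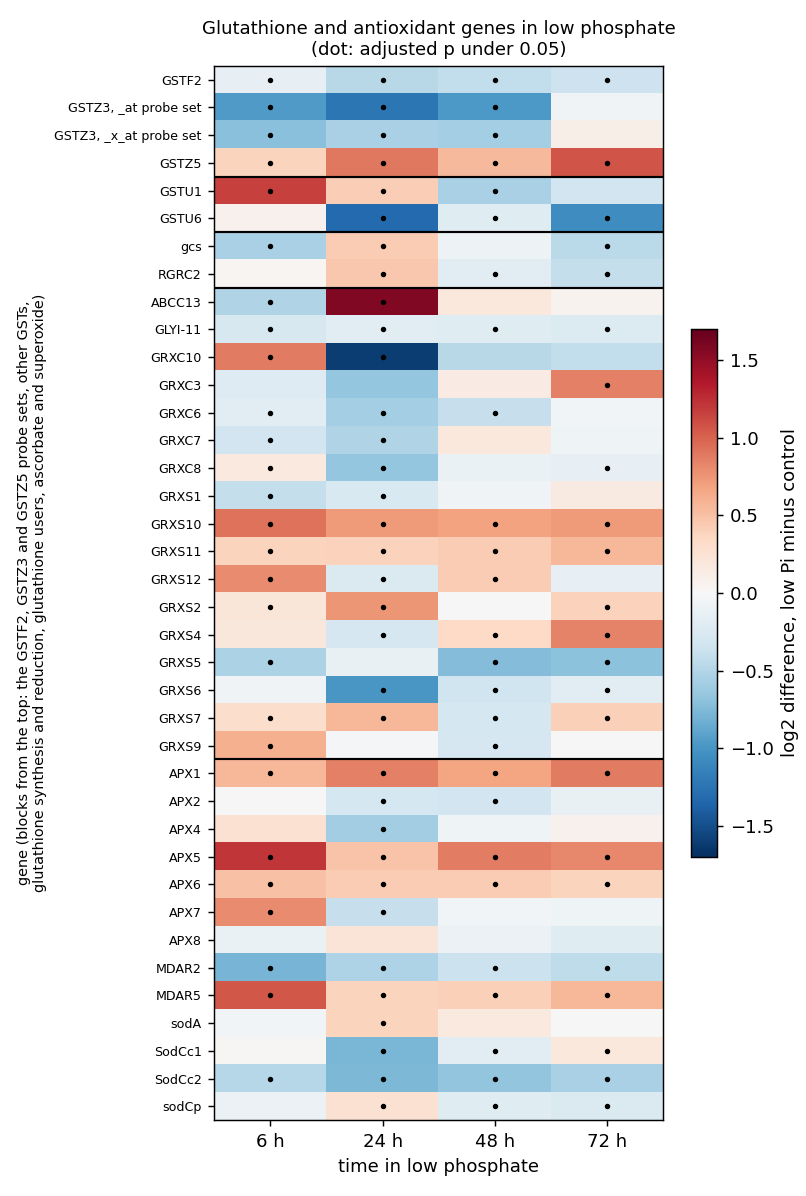
Log2 difference from the control (colour, low phosphate minus control, red higher and blue lower) for the 4 probe sets of GSTF2, GSTZ3 and GSTZ5 in the top block and the tested genes of 4 lists below (rows), by time in low phosphate (columns). Dots mark adjusted p under 0.05. GRXS10 and APX1 are among the genes higher at all 4 times, and most lists hold changes in both directions.

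The genes whose pattern was most like each member were searched among 2240 named genes by Pearson's r of the log2 signal over the 10 arrays, as a description, with arrays of a group close to each other. For GSTF2 they were GF14C, a 14-3-3 protein gene (r = 0.964), the ornithine aminotransferase gene OAT (0.958) and the glycolate oxidase gene OsGLO3 (0.955). OsGLO3 had signals of 6596.6 and 6467.1 in the control and 2334 and 2486.3 at 24 h, a larger fall than that of GSTF2. For GSTZ3 on the _x_at probe set they were SMR1 (0.978), MCCA, which encodes a subunit of the leucine-degrading enzyme methylcrotonoyl-CoA carboxylase (0.970), and OsIRL2 (0.958). MCCA had 4586.8 and 4919.8 in the control, 1995.8 and 2081.6 at 6 h, and 4095 and 4699.1 at 72 h under the authors' scaling. Its likeness to GSTZ3 follows from its choice by r on these same arrays. For GSTZ5 they were OsPID, a protein kinase gene of the PINOID type (0.980), the autophagy gene APG12 (0.970) and FAS2, a chromatin assembly factor subunit gene (0.969). OsPID had 544.9 and 638.4 in the control, 1136.5 and 1215.4 at 48 h and 1802.8 and 1652.9 at 72 h.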

How the data were processed

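GCOS and MAS5 are the programs named in the submitters' processing notes, with no version. The deposited values are linear signal intensities per probe set. The authors had scaled them already, since every array had a trimmed mean of 500.1 when 2% was cut from either end. Detection calls were not used here. The number of arrays limits the precision, with 2 in a group. The p-values set the difference between those arrays against a spread pooled over the 5 groups. limma moderated this spread with that of all probe sets tested.

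For the tests the signals were put on the log2 scale without an offset. Probe sets with a mean above the 40th percentile were tested (34355 of 57258 that are not Affymetrix controls) with limma 3.58.1 in R 4.3.3 (lmFit, eBayes with an intensity trend, group means over all 10 arrays, 5 residual degrees of freedom). Tests were two-sided, with Benjamini-Hochberg adjustment over all probe sets of a comparison and 0.05 as the threshold. The fit was tested on simulated data. Alternatives were no filter, quantile normalization, median centring, an offset of 32, no trend, only the groups compared, a replicate block, each array left out, and the 2-fold rule. Several of these leave a difference itself unchanged and alter only its adjusted p.

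Members and lists were chosen with earlier results of these data known. All probe sets of the 3 genes are given. From each list, up to 3 members with the largest passing change per comparison with the control were eligible to be named, 1 probe set per gene (the brightest), as were the 3 named genes most correlated with each member. GSTF1 and the other probe sets of gcs were named after their values were seen. Symbols come from a RefSeq gene table (ASM3414082v1), joined by gene identifier. Its coordinates are not printed.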

Additional observations from a re-analysis of the deposited data

Results flagged for a closer look

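The difference from the shared control changed between successive times in 7 cases, by the limma test of one time against the other (adjusted p under 0.05). Low phosphate, seedling age and time of day cannot be told apart in these values. Each of the 4 probe sets was tested at each step. Of all probe sets tested, 39.3% passed at 24 h against 6 h, 35.8% at 48 h against 24 h and 31.2% at 72 h against 48 h. GSTF2 differed by -0.34 at 24 h against 6 h. GSTZ3 differed by 0.91 on the _at probe set and by 0.67 on the _x_at probe set at 72 h against 48 h, and by 0.16 on the _x_at probe set at 24 h against 6 h. GSTZ5 differed by 0.52 at 24 h against 6 h, by -0.35 at 48 h against 24 h and by 0.51 at 72 h against 48 h. Groups of 2 arrays are too small for a test of single outlying arrays.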

How the results depend on the processing

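Each probe set of the 3 genes was compared 7 times under 17 alternatives, and 443 of these values kept both their direction and their side of the threshold, 21 lost and 5 gained a call, and 7 changed sign. Leaving out an array of neither compared group could not alter a difference itself, only its adjusted p. The same holds for no filter, no trend, only the groups compared and the replicate block. The sign changed with quantile normalization for GSTF2 at 6 h against the control (0.15) and at 72 h against 48 h (-0.088). It changed with median centring for GSTZ3 on the _x_at probe set at 72 h against the control (-0.40) and at 48 h against 24 h (0.090), and at 72 h against 48 h for GSTF2 (-0.45) and GSTZ5 (-0.00043). It changed without replicate 1 of the 48 h group for GSTZ3 on the _x_at probe set at 48 h against 24 h (0.024), where leaving out 1 array in turn gave -0.073 to 0.024. Of the lost calls, 14 were of GSTZ3 on the _x_at probe set at 24 h against 6 h, and GSTF2 at 6 h lost its call without control replicate 1 (adjusted p = 0.206), without either 6 h array (0.0703 and 0.173), without an intensity trend (0.219) and with median centring (0.09). The number of the 4 probe sets called at 48 h against 24 h was 2 with quantile normalization and 2 with median centring, and 1 to 2 with 1 array left out; at 72 h against the control it was 4 with median centring. Median centring raised the count over all probe sets at 72 h against 48 h to 16121 from 10727. By the 2-fold rule, 1 probe set passed at 24 h and 1 at 72 h against the control, and 0 at 6 h, 0 at 48 h and 0 in the comparisons of successive times. Named genes of the lists changed sign in 0 cases and lost their call in 39, among them GSTU1 at 24 h (passing in 10 of 17 alternatives) and at 48 h (14), GSTU6 at 48 h (11), RGRC2 at 48 h (12), GRXC3 at 72 h (13), and APX5 and MDAR5 at 72 h (16 each). The running of the alternatives on the lists was chosen after seeing the data. The labels give the groups the same replicate numbers but no shared origin, and the correlation of same-numbered deviations between groups ranged from -0.01 to 0.02. With the replicate number as a block, 1 call on the 3 genes was lost, that of GSTZ3 on the _x_at probe set at 24 h against 6 h (0.16, adjusted p = 0.0559), and the counts over all probe sets fell slightly, to 12274 at 6 h, against 12432 without the block.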

Other observations

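The GSTZ3 probe sets did not keep a fixed ratio. The log2 signal of the _x_at probe set less that of the _at probe set was 2.81 and 2.48 at 24 h, against 1.99 and 1.95 in the control, with 2.15 and 2.3 at 6 h, 2.39 and 2.35 at 48 h and 2.17 and 2.09 at 72 h. All arrays in low phosphate were above both control arrays. How often the ratios of other pairs of probe sets do so was not computed. Among single probe sets, arrays were apart from the control in 66% (24 h) to 70.8% (72 h).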
